A study of Mus musculus with 12 samples.

Results

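The 10 genes Inhba, Tgfb1, Tgfb2, Tgfb3, Bmp2, Smad6, Smad7, Nog, Grem1 and Fst of TGF-beta, activin and BMP signalling were followed in RNA of murine hip cartilage, measured on Illumina mouse BeadChips, which carry gene probes on coated beads. They encode ligands (Inhba, Bmp2, Tgfb1, Tgfb2 and Tgfb3), secreted antagonists (Nog, Grem1 and Fst) and inhibitory Smads (Smad6 and Smad7), and every probe carrying one of these 10 symbols was taken. Of the 15434 genes and 21004 probes of the normalized table, 9 of the genes held 10 probes, since Smad6 had 2, and Smad7 was found only among the 45281 probes of the non-normalized table. The 12 arrays formed 4 groups of 3, namely control and injured cartilage of WT mice and of Mapk9 KO mice. All mice were C57BL6, with an age of 4 to 6 weeks on the sample labels and 5 to 6 weeks in the methods, and the KO mice lacked Mapk9, which encodes the c-Jun N-terminal kinase JNK2. Cartilage was injured by tearing off the femoral epiphysis. Control cartilage was frozen at once, and injured cartilage was first kept for 4 h in serum-free culture, so injury and culture cannot be told apart. The methods do not settle whether the control hips had been torn off in the same way, so every difference between injured and control arrays may compare 4 h after this injury with the moment of injury and not with uninjured tissue. By the methods, each replicate pooled hips of several mice, and p-values measure the spread between these pools.

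Ligands of this superfamily bind pairs of receptor kinases at the cell surface, which phosphorylate Smad proteins that enter the nucleus with Smad4 and regulate genes. TGF-beta and activin act mainly through Smad2 and Smad3, and BMPs through Smad1, Smad5 and Smad9. The pathway is held in check outside the cell by proteins that trap ligands or keep them latent in the matrix, and inside it by Smad6 and Smad7. In cartilage, TGF-beta is stored in the matrix in a latent form, and BMPs promote chondrocyte differentiation.

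The sequences below are the 50-base array probes behind the changes described first, because each measured level is a hybridization to these bases and to no other part of the transcript. They were designed from source transcripts and are printed 5′ to 3′ in lower case. The Inhba probe starts at base 1294 of its source transcript, the Nog probe at 639, the Bmp2 probe at 562 and the Smad6 probes at 1692 and 817. The deposited annotation places Inhba on chromosome 13, Nog on chromosome 11 and the second Smad6 probe on chromosome 9. Each of these 5 probes can be read without a stop codon in at least 1 forward frame.
Inhba: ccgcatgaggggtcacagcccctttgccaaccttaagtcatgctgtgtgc
Nog: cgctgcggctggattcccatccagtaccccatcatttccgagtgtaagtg
Bmp2: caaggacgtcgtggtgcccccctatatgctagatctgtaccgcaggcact
Smad6 probe 1: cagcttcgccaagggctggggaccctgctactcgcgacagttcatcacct
Smad6 probe 2: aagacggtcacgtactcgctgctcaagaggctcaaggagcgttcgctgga

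Between 16930 and 18969 probes per array were detected, that is, brighter than the negative controls at a detection p-value under 0.05. Array medians lay between 7.55 and 7.70 on the log2 scale, and the arrays correlated with each other between 0.868 and 0.986. The brighter Mapk9 probe read 10.50 to 10.90 in WT control and 9.14 to 9.28 in Mapk9 KO control, 2.97-fold lower (adjusted p = 0.0151 with limma, 0.061 with the replicate number as a block), and it was still detected on all KO arrays. The second Mapk9 probe was detected on no KO array, and whether either probe lies in the deleted part is not given in the sources used here. The 8 chondrocyte marker genes in the table were detected on all arrays. Of these, 6 rose and 1 fell in WT, and the log2 of their summed signal was 14.73 to 15.48 in WT control and 16.01 to 16.29 in WT injured. In Mapk9 KO 7 of the 8 rose and 0 fell, from 14.70–15.30 to 15.90–16.18, and Col11a1 was called lower in WT and higher in Mapk9 KO at different probes. Of 10 skeletal muscle markers, 9 fell in WT and 10 fell in Mapk9 KO, from 15.48–16.23 to 12.85–14.70 and from 16.44–17.08 to 13.25–14.38 in log2 summed signal. Adipocyte markers fell in both genotypes (3 of 4). Of 6 macrophage markers, 4 fell in WT and 5 in Mapk9 KO while Cd14 rose, and their log2 summed signal went from 13.62–14.22 to 14.62–14.72 in WT. In both genotypes, 3 of 5 osteoblast markers fell and 3 of 6 neutrophil markers rose. Of 6 fibroblast markers 2 fell in WT and 3 in Mapk9 KO, of 3 osteoclast markers 1 and 2 fell, and of 6 erythroid markers 1 fell in each. Of 5 endothelial markers, 1 rose in WT. Both tissue makeup and transcription can set a level in bulk RNA, so fewer cells of a type and less RNA per cell cannot be told apart, and the part of these markers in the changes below was not tested. WT control replicate 2 held the lowest value of its group at 9 of the 10 probes, compared with 32.9% of all probes.

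A gene was called when 1 of its probes changed more than 2-fold at an adjusted p under 0.05 (limma, Benjamini-Hochberg over all probes). In WT, 2 of the 9 measured genes were upregulated post injury, Inhba and Nog, and 0 were downregulated, although Smad6 was lower at an adjusted p of 0.0315 in limma and missed only the fold limit, and Grem1 was lower at an unadjusted p under 0.05 (adjusted p = 0.0531), as 41.4% of all genes differed at that unadjusted p. Of all genes, 8.35% were called higher and 8.24% lower in the same comparison. In Mapk9 KO, Inhba, Nog and Bmp2 were upregulated and Smad6 was downregulated, against 10.6% of all genes called higher and 10.4% called lower. Control and injured values did not overlap at 6 of the 10 probes in WT (3 higher and 3 lower) and at 6 in Mapk9 KO (4 higher and 2 lower), compared with 41.2% and 49.7% of all probes. The median log2 change of the 9 genes at their main probes was 0.40 in WT and 0.35 in Mapk9 KO. These are the values of Tgfb1 and Grem1, neither of which was called. The median of all probes was -0.02 in both genotypes, and the difference was not tested. At 3 against 3 arrays, an exact two-sided permutation test of a single gene cannot give a p below 0.1.

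**Figure D1:**
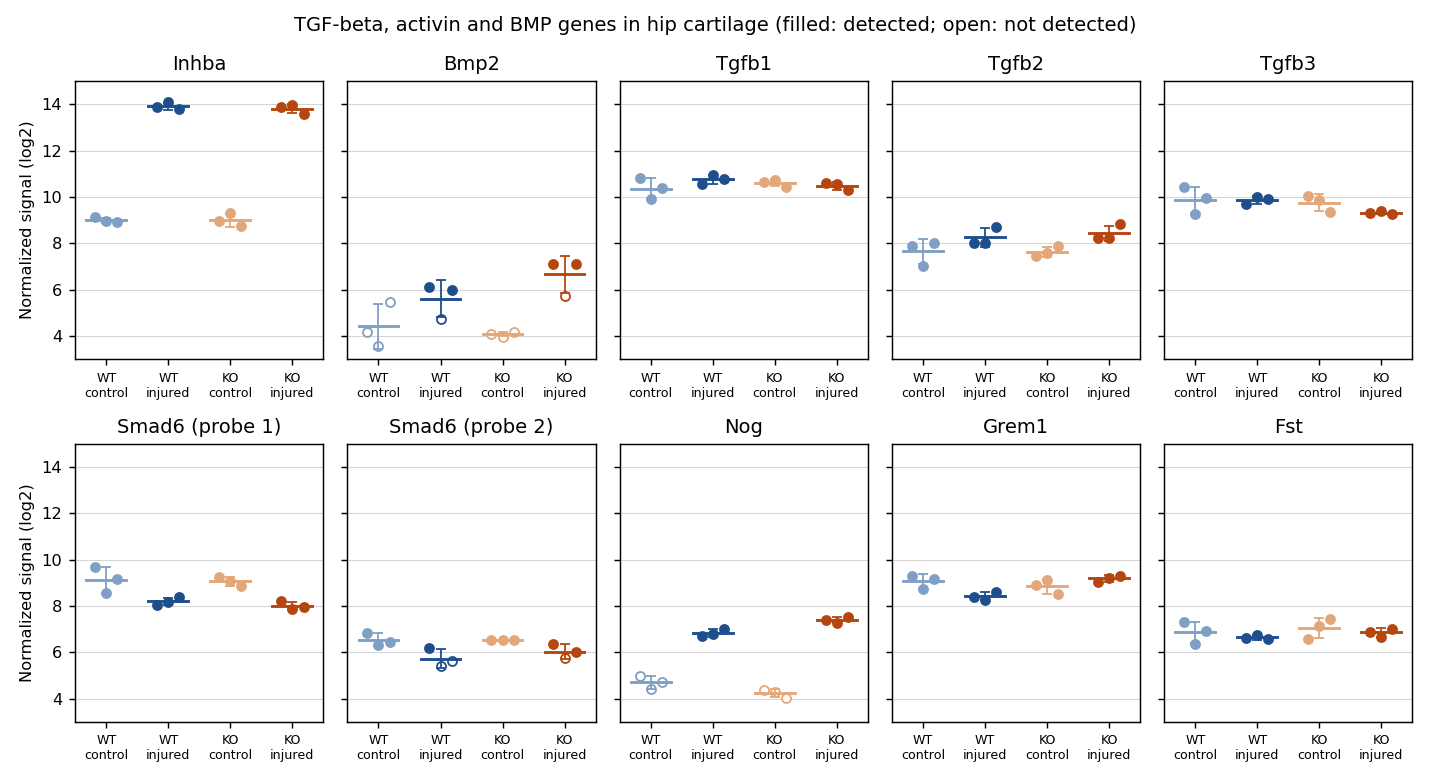
Normalized log2 signal (y axis) of the 10 probes on every array in the 4 groups (x axis), with horizontal lines at the group mean and error bars of 1 SD (n = 3). Filled points are detected and open points are not detected at a detection p under 0.05. Inhba ranged from 8.73 to 9.30 in the controls of both genotypes and from 13.59 to 14.09 post injury, and Nog was open on every control array and filled on every injured one.

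Inhba, which encodes the subunit of activin A, changed most among these genes. Its log2 signal was 9.11, 8.95 and 8.90 in WT control and 13.86, 14.09 and 13.78 in WT injured. In Mapk9 KO it was 8.95, 9.30 and 8.73 in control and 13.89, 13.95 and 13.59 in injured. All 6 injured arrays stood far above all 6 control arrays, and the genotypes overlapped at both conditions. The rise was 30.4-fold in WT (log2 change 4.93, SE 0.19, adjusted p = 9.97e-07 with limma) and 28.1-fold in Mapk9 KO (4.81, SE 0.20, adjusted p = 1.11e-07). The change in Mapk9 KO minus that in WT was -0.11, with a 95% interval of -0.68 to 0.46. Before normalization the probe had an intensity of 498 to 900 in the controls and 11730 to 16790 post injury, where the highest signal of any probe per array was 18690 to 27400. The main probes that followed Inhba most closely over the 12 arrays were those of Nfil3 (r = 0.998), 1810008K03Rik and Hspa1a (r = 0.997 each). These coefficients describe 4 groups split by injury and are not independent of that split.

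Bmp2, a ligand that drives bone and cartilage formation, was dim. It read 4.18, 3.57 and 5.47 in WT control and 6.12, 4.71 and 6.00 in WT injured. In Mapk9 KO it read 4.09, 3.97 and 4.16 in control and 7.10, 5.73 and 7.12 in injured. It was detected on no control array and on 2 of 3 injured arrays of each genotype, always without replicate 2. WT groups overlapped, through control replicate 3, whereas the KO groups did not. The rise in Mapk9 KO was at least 1.64-fold, counted from the lowest signal of a detected probe on the control arrays (fitted log2 change 2.57, SE 0.33, adjusted p = 0.000132 with limma). With quantile normalization without background correction the fitted log2 change was 0.79, under the fold limit. In WT the fitted log2 change was 1.20 (SE 0.49, adjusted p = 0.0996), and it passed the threshold with the replicate number as a block (adjusted p = 0.0178), without WT control replicate 3 (log2 change 1.73) or without WT injured replicate 2 (1.65). The difference between the genotypes in that change was 1.37, with a 95% interval of -0.08 to 2.82 (adjusted p = 0.527).

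None of the TGF-beta ligands, which are made as latent precursors, passed the threshold in either genotype. Tgfb1 read 10.80, 9.90 and 10.37 in WT control, 10.55, 10.94 and 10.77 in WT injured, 10.66, 10.73 and 10.43 in Mapk9 KO control, and 10.60, 10.54 and 10.29 in Mapk9 KO injured. Its groups all overlapped, and the log2 change was 0.40 (95% interval -0.17 to 0.96) in WT and -0.13 (-0.52 to 0.27) in Mapk9 KO.
Tgfb2 read 7.90, 7.03 and 8.0 in WT control and 8.02, 8.02 and 8.72 in WT injured, so that the groups just missed each other. In Mapk9 KO it read 7.45, 7.58 and 7.86 in control and 8.23, 8.23 and 8.81 in injured, again without overlap. The KO change was 1.73-fold (log2 0.79, SE 0.21, adjusted p = 0.0126 with limma), under the 2-fold limit, and the WT change was 0.61 (SE 0.30, adjusted p = 0.173).
Tgfb3 read 10.41, 9.28 and 9.94 in WT control and 9.69, 10.01 and 9.91 in WT injured, a log2 change of -0.01 (95% interval -0.63 to 0.61) whose sign depended on single arrays. In Mapk9 KO it read 10.05, 9.87 and 9.35 in control and 9.29, 9.38 and 9.27 in injured (log2 change -0.44, SE 0.21, adjusted p = 0.119). Every KO injured array lay below every WT injured array, by 0.55 log2 units on average (adjusted p = 0.237). The injured groups lay apart, in either direction, at 16.8% of all probes.

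**Figure D2:**
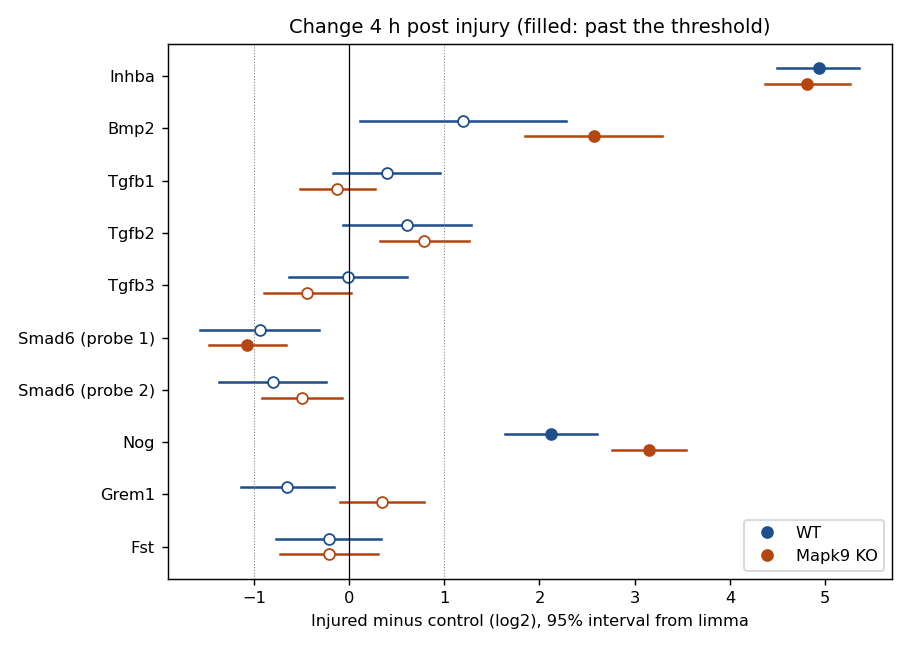
Injured minus control on the log2 scale (x axis) for each probe (y axis) in WT (blue) and Mapk9 KO (orange), with 95% intervals from limma. Filled points passed the threshold, and dotted lines mark a 2-fold change in either direction. Inhba and Nog were filled in both genotypes, Bmp2 and the first Smad6 probe in Mapk9 KO, and neither Bmp2 nor Smad6 passed the interaction test.

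Among the secreted antagonists, Nog encodes noggin, which binds BMPs and keeps them from their receptors. Nog read 4.99, 4.42 and 4.71 in WT control and 6.70, 6.78 and 7.0 in WT injured. The KO values were 4.36, 4.30 and 4.04 in control and 7.39, 7.25 and 7.52 in injured. It was detected on none of the control arrays and on all injured arrays, and the WT and KO injured groups lay apart, with KO higher. The controls were not above background, so their order has no meaning as a level. The rise was at least 1.98-fold in WT (fitted log2 change 2.12, SE 0.22, adjusted p = 0.00012 with limma) and at least 2.73-fold in Mapk9 KO (3.15, SE 0.18, adjusted p = 4.74e-07). The threshold used the fitted values. With quantile normalization without background correction, the WT change was 0.76 and not past the fold limit. The fitted rise was 1.03 larger in Mapk9 KO (95% interval 0.47 to 1.59, unadjusted p = 0.00156), which did not pass after adjustment (adjusted p = 0.312). Part of that difference lay between control arrays on which the probe was not detected (KO minus WT -0.47), and on the injured arrays KO stood 0.56 above WT (adjusted p = 0.243). The main probes nearest to Nog over the 12 arrays were those of 2900055J20Rik (r = 0.993), Hsd17b7 and Slc7a3 (r = 0.991 each), given as a description of the same split.

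Grem1 encodes gremlin, another BMP antagonist that is made in articular cartilage. It read 9.31, 8.75 and 9.16 in WT control and 8.40, 8.27 and 8.60 in WT injured, so every injured array was below every control array. The KO arrays read 8.90, 9.13 and 8.50 in control and 9.04, 9.22 and 9.31 in injured, where the groups overlapped. The log2 change was -0.65 in WT (SE 0.22, adjusted p = 0.0531 with limma) and 0.35 in Mapk9 KO (SE 0.20, adjusted p = 0.201), neither past the threshold. With the replicate number as a block, the limma adjusted p was 0.0344 in WT and 0.17 in Mapk9 KO, and both changes stayed under the fold limit. The changes differed by 1.00 (95% interval 0.37 to 1.62, unadjusted p = 0.0041, adjusted p = 0.32). On the injured arrays the KO values lay above all WT values, by 0.77 (adjusted p = 0.168), while the controls overlapped.

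Fst encodes follistatin, which binds activins with high affinity. It read 7.29, 6.36 and 6.91 in WT control, 6.61, 6.75 and 6.57 in WT injured, 6.59, 7.15 and 7.44 in Mapk9 KO control, and 6.87, 6.67 and 7.02 in Mapk9 KO injured. All groups overlapped, and the log2 change was -0.21 in both genotypes, with a 95% interval of -0.77 to 0.34 in WT and -0.72 to 0.30 in Mapk9 KO.

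**Figure D3:**
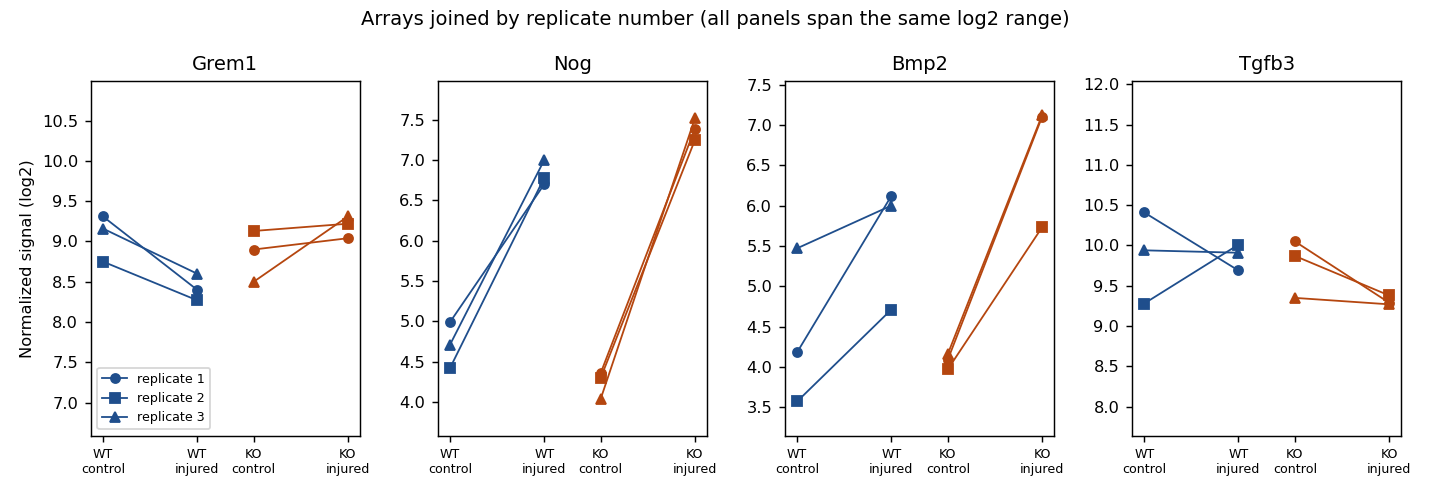
Normalized log2 signal (y axis) of Grem1, Nog, Bmp2 and Tgfb3, with control and injured arrays (x axis) of the same replicate number joined by a line, in WT (blue) and Mapk9 KO (orange). Grem1 fell in 3 of 3 WT pairs and rose in 3 of 3 KO pairs, by between 0.09 and 0.81, and the lines of Nog and Bmp2 rose in all pairs of both genotypes.

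Smad6 and Smad7 are inhibitory Smads, which block receptor-activated Smads and are themselves known targets of the pathway. The first Smad6 probe read 9.69, 8.57 and 9.15 in WT control and 8.06, 8.15 and 8.38 in WT injured. The KO values were 9.24, 9.07 and 8.87 in control and 8.20, 7.85 and 7.94 in injured. Injured arrays were below control arrays without overlap in both genotypes. The fall was 1.92-fold in WT (log2 change -0.94, SE 0.28, adjusted p = 0.0315 with limma) and 2.10-fold in Mapk9 KO (-1.07, SE 0.18, adjusted p = 0.000996), on either side of the 2-fold limit. The KO value fell under that limit without KO control replicate 1 (-0.98) or KO injured replicate 2 (-0.99) and with quantile normalization without background correction (-0.82), and the WT value passed it without WT control replicate 2 (-1.22). The genotypes differed by -0.13 in this change (95% interval -0.86 to 0.61).
The second Smad6 probe was dimmer and read 6.84, 6.30 and 6.45 in WT control, 6.17, 5.40 and 5.61 in WT injured, 6.53, 6.53 and 6.51 in KO control, and 6.34, 5.73 and 6.02 in KO injured. It also was lower on every injured array, with a log2 change of -0.80 in WT (SE 0.25, adjusted p = 0.0401 with limma) and -0.49 in Mapk9 KO (SE 0.19, adjusted p = 0.067). It was detected on 1 of 3 WT injured and 2 of 3 KO injured arrays, and its WT value passed the threshold without WT injured replicate 1 (-1.03).
The single Smad7 probe was not detected on any of the 12 arrays, with a lowest detection p-value of 0.52. Its intensity was 96.0 to 135 in WT control, 104 to 126 in WT injured, 96.8 to 117 in Mapk9 KO control and 101 to 132 in Mapk9 KO injured. No level or change of Smad7 can be read from it.

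Genotype alone called none of these genes. WT and KO values did not overlap at 1 of the 10 probes in control arrays (Nog, undetected there), compared with 10.8% of all probes. They did not overlap at 3 probes in injured arrays (Grem1, Nog and Tgfb3), compared with 16.8%. In the control arrays 0 of 9 passed the threshold, compared with 0.149% of all genes, and 0 had an unadjusted p under 0.05 in limma, compared with 7.85%. Without WT control replicate 3 the share of all genes past the threshold was 2.21%, and still none of the 9 passed. In the injured arrays 0 of 9 passed, compared with 0.201% of all genes, although 4 had an unadjusted p under 0.05 (Bmp2, Grem1, Nog and Tgfb3), compared with 15.4% of all genes. With the replicate number as a block, Bmp2 passed there (KO minus WT 1.04, adjusted p = 0.0312 with limma), as did 1.12% of all genes. The share of all genes called in the injured arrays was 0.939% without WT injured replicate 1, 0.369% without KO injured replicate 2, and 0.117% to 0.136% without any 1 of the other injured arrays. The interaction of genotype and injury called 0 of 9 in limma with and without the block, and of all genes 0% without it and 0.68% with it. Leaving out WT control replicate 3, without the block, it called 1.35% of all genes. Of the 9, 2 (Nog and Grem1) had an unadjusted interaction p under 0.05, compared with 12.4% of all genes.

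Promoters were held in the RefSeq table used here (GRCm38.p6) for 5 of the 10 genes: Inhba, Tgfb1, Tgfb2, Smad6 and Grem1. A set of 4 motifs was searched on both strands from 250 bases before to 50 after each gene start. AP-1 (TGANTCA) and CRE (TGACGTCA) were in none of the 5 and in 7.81% and 1.79% of all 32851 promoters. The Smad palindrome GTCTAGAC was in Smad6 alone, from base -4 to base 4 around the start, and in 0.213% of all promoters. The BMP Smad box GGCGCC was in Grem1, from base -78 to base -73, and in 11.9% of all promoters. The Smad6 promoter (chr9:64022056-64022309, minus strand) and the Inhba promoter (chr13:16011601-16011850, plus strand) are shown from 250 bases before the start, for the gene that fell and the gene that rose most. Capitals mark the palindrome. A match or its absence describes these letters only.
Smad6 promoter: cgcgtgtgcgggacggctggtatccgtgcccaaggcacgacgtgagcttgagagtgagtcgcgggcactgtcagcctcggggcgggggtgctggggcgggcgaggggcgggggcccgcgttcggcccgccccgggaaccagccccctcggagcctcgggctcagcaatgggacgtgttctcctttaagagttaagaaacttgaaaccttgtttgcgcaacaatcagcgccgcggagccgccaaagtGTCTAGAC
Inhba promoter: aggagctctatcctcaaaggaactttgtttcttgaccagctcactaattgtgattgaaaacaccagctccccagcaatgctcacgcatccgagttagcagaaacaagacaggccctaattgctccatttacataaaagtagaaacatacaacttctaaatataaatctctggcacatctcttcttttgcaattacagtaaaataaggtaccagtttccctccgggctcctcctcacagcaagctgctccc

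The rest of the pathway was described with 7 lists of 97 genes, of which 61 were in the normalized table. In WT, 11 of the 61 (18%) rose and 6 (9.8%) fell, and in Mapk9 KO 14 (23%) rose and 11 (18%) fell, beside the shares of all genes given above. In limma without the block, 0 of the 61 were called for the interaction (6 at an unadjusted p under 0.05), 0 for genotype in control arrays (4) and 0 for genotype in injured arrays (19), beside 12.4%, 7.85% and 15.4% of all genes at that p. With the block, 1 of the 61 was called for the interaction (Bmpr1a) and 1 for genotype in injured arrays (Tgif1), beside 0.68% and 1.12% of all genes. Quantile normalization without background correction called 7 of the 61 in WT and 15 in Mapk9 KO, beside 6.27% and 9.48% of all genes, and it did not call Acvrl1, Bmpr1b, Fbn2, Fstl3, Gdf5, Itgb6, Nedd4l, Smad5, Smurf2 and Tgif1 in WT or Acvr1, Acvrl1, Bmp1, Bmpr1b, Crim1, Fbn1, Fstl3, Itgav, Nedd4l and Smad5 in Mapk9 KO.

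Of 9 other ligands, Gdf15, Gdf5 and Inhbb rose and Bmp4 fell in both genotypes. Gdf15, a stress-induced distant member of the family, was undetected on all control arrays and rose at least 11.1-fold in WT and at least 8.45-fold in Mapk9 KO. Inhbb, the activin B subunit, had fitted rises of 11.9-fold in WT (log2 change 3.58, SE 0.30) and 9.34-fold in Mapk9 KO (3.22, SE 0.21). It was detected on 1 of 3 WT control and 2 of 3 KO control arrays, so these folds rest in part on values not above background. Gdf5, a joint-forming factor, rose at least 3.14-fold and 3.54-fold at its brighter probe. Bmp4 fell 3.40-fold in WT (log2 change -1.77, SE 0.25) and 3.64-fold in Mapk9 KO (-1.87, SE 0.23). Bmp3 fell past the threshold in Mapk9 KO (-1.22) and read -0.94 in WT, or -1.03 and past the threshold without WT control replicate 3. The median log2 change of the list was 0.71 in WT and 0.56 in Mapk9 KO.

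Of 11 receptors, the BMP receptor genes Acvrl1 and Bmpr1b rose and Tgfbr1, the type I receptor for TGF-beta, fell in both genotypes. Tgfbr1 went from 12.33 ± 0.56 to 10.83 ± 0.15 in WT (SD, n = 3; log2 change -1.50, SE 0.28) and from 12.09 ± 0.42 to 10.65 ± 0.13 in Mapk9 KO (-1.45, SE 0.22). Acvrl1 was undetected in both controls and rose at least 1.61-fold in WT and 1.45-fold in Mapk9 KO. Bmpr1b rose at least 1.23-fold and 1.16-fold at the same probe, where neqc gave log2 changes of 0.97 and 0.98, under the fold limit. A second Bmpr1b probe was undetected on all KO arrays, so its fitted call gives no fold. Acvr1 read a log2 change of 0.80 in WT and rose by 1.06 in Mapk9 KO, but by 0.96 and 0.98 without replicate 3 of KO control or of KO injured.

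Of 5 signal-carrying Smads, Smad5 was called at 1 of its 3 probes, with a rise of at least 1.54-fold in WT and 1.71-fold in Mapk9 KO. That probe was dim and undetected on all control arrays. The other Smad5 probes were brighter, detected on all arrays and not called in either genotype. Their lowest changes were -0.26 in WT and -0.36 in Mapk9 KO, at different probes. Of 8 other secreted modulators, Fstl3, which binds activins, rose at least 1.95-fold in WT and 2.35-fold in Mapk9 KO from undetected controls. Fstl1, a follistatin-like glycoprotein, fell from 10.60 ± 0.07 to 9.21 ± 0.20 in WT and from 10.57 ± 0.07 to 8.76 ± 0.08 in Mapk9 KO (SD, n = 3). In Mapk9 KO, Nbl1, a BMP antagonist, fell at both probes (-1.33 and -1.11), compared with -0.87 to -0.79 in WT (-1.20 and -1.09, past the threshold, without WT control replicate 2), and Crim1, which binds BMPs, was called at 1 of 2 probes, undetected on all KO control arrays, with a rise of at least 1.34-fold that was not past the limit without KO injured replicate 3.

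Of 12 genes of latency and activation, Thbs1 rose and Bmp1, Fbn2 and Itgb6 fell in WT, while Thbs1 rose and Bmp1, Fbn1, Itgav, Itgb6 and Ltbp4 fell in Mapk9 KO. Thbs1 encodes thrombospondin-1, which can release TGF-beta from its latent form, and rose 4.02-fold in WT (log2 change 2.01, SE 0.53, adjusted p = 0.0204 with limma) and 6.50-fold in Mapk9 KO (2.70, SE 0.20, adjusted p = 2.65e-06). The WT value of Thbs1 did not pass without WT injured replicate 1 (log2 change 1.72), and it was 1.28 without WT control replicate 2. Bmp1, a protease of matrix precursors and not a BMP ligand, fell 2.21-fold in WT (log2 change -0.99 without WT control replicate 1) and 2.19-fold in Mapk9 KO at the same probe. It was called at 2 of 4 probes in WT and 1 in Mapk9 KO, and its brightest probe read -0.81 and -0.79, under the fold limit. Itgb6, an integrin subunit of epithelia that activates latent TGF-beta, fell at least 2.17-fold in WT and 5.38-fold in Mapk9 KO, with a WT control SD of 1.65. Its WT control values were 6.26, 5.77 and 8.84, and the fitted log2 change of -2.18 was -1.24 without replicate 3 and -2.77 without replicate 2 of that group. The WT call of Itgb6 was lost without WT injured replicate 1 or replicate 2, and that of Fbn2 without any 1 of WT control replicate 3, WT injured replicate 1 and WT injured replicate 3, and also with the replicate block (adjusted p = 0.0671 with limma). In Mapk9 KO, Itgav was called at 1 of its 4 probes (-1.0), its brightest probe read 0.36, and the call was lost without KO control replicate 1 or 2 or KO injured replicate 1 or 3 (-0.93 to -0.77). Fbn1 (-1.05) read -0.95 without KO control replicate 2 or KO injured replicate 1. Fbn2 read -0.99 in Mapk9 KO and passed without any 1 of KO control replicates 1 and 3 and KO injured replicates 1 and 3 (-1.07 to -1.01). Its only probe was detected on all WT control arrays, on 1 of 3 KO control arrays and on no injured array. The Fbn2 changes in both genotypes therefore rest in part on values not above background. Ltbp4, which encodes a latent TGF-beta binding protein, read -1.41 in Mapk9 KO and -0.68 in WT at its brightest probe, where the WT control values were 9.93, 8.16 and 10.07. Without WT control replicate 2 the WT change of Ltbp4 was -1.29 and passed (adjusted p = 0.00216 with limma). Ltbp3 also passed there at 1 of its 3 probes (-1.71, from -0.93). That dim probe was undetected on all WT injured arrays, so its value gives no fold. With all arrays, the WT changes of the Ltbp3 probes ranged from -0.93 to -0.03, the latter at the brightest probe. The median log2 change of this list was -0.43 in WT and -0.40 in Mapk9 KO, and muscle and adipocyte markers fell on the same arrays.

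Of 12 intracellular regulators, Nedd4l, Smurf2 and Tgif1 rose and none fell in either genotype. Nedd4l and Smurf2 are ubiquitin ligases that act on Smads and receptors, and Tgif1 (Tgif in the deposited table) is a corepressor of Smad2. Tgif1 was called higher at all 3 of its probes in both genotypes, 2.94-fold in WT and 3.13-fold in Mapk9 KO at the probe detected on all control arrays. Its dimmest probe was detected on no control array, on 1 of 3 WT injured arrays and on 2 of 3 KO injured arrays. The fitted calls at that probe therefore give no fold. Smurf2 rose 2.33-fold and 2.44-fold at its brightest probe, was called at 1 of 3 probes in WT and 2 in Mapk9 KO, and read log2 changes of 0.19 and 0.55 at the probe called in neither. Nedd4l rose 2.42-fold and 2.27-fold. Of 4 common target genes of the pathway, none was called in WT by limma, although all 4 had an unadjusted p under 0.05, as did 41.4% of all genes. In Mapk9 KO, Ctgf rose at 1 probe (log2 change 1.47) and read 0.96 at its brighter one, and Hey1 fell (-1.16, or -0.97 and not past the limit without KO control replicate 2). In WT the log2 change was 0.91 (1.08 and past the threshold without WT control replicate 1) and 0.79 at the Ctgf probes and -0.73 for Hey1.

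**Figure D4:**
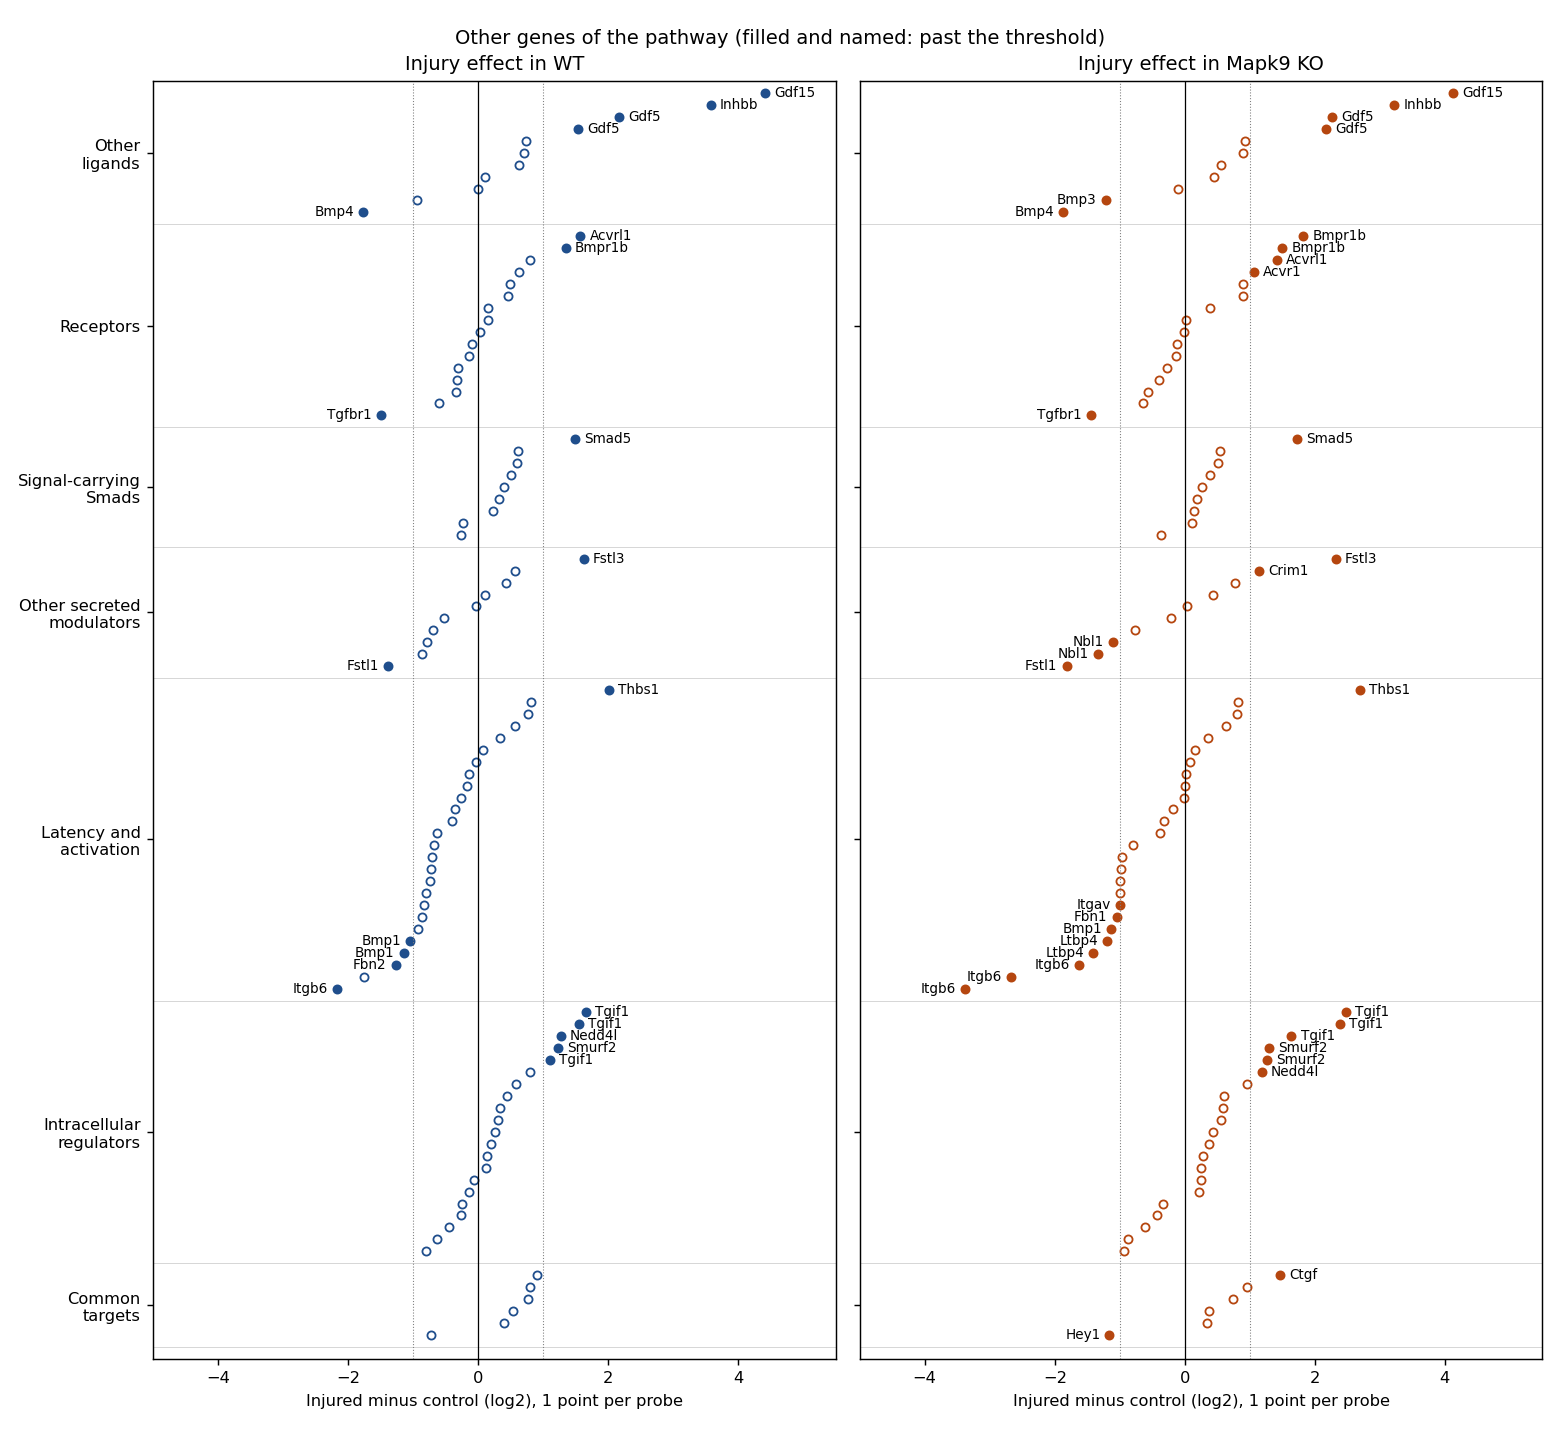
Injured minus control on the log2 scale (x axis) for every probe of the 61 other pathway genes, grouped by role (y axis), in WT (left) and Mapk9 KO (right), with 1 point per probe. Filled, named points passed the threshold and dotted lines mark a 2-fold change. Gdf15, Inhbb and Gdf5 lay at the right among ligands and Bmp4 at the left in both genotypes.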

How the data were processed

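Biotin-labelled cRNA was hybridized to Illumina mouse BeadChips. The authors deposited signal intensity with a detection p-value per probe, without background correction, and log2 values that they corrected with negative control probes and normalized with vsn (version not given in the sources used here). Groups came from the sample labels. Each probe of the log2 table was tested with limma 3.58.1 (lmFit, eBayes) in R 4.3.3 on the arrays of each comparison, the interaction on all 12 arrays. Calls needed more than a 2-fold change with a Benjamini-Hochberg adjusted p under 0.05, and for the interaction the adjusted p alone. The main probe of a gene had the highest mean over all arrays. A bound ("at least") replaced the fold where no array of a group detected the probe, with the lowest signal of a detected probe per array (5.62 to 6.05) in its place. Log2 changes are fitted values and were not bounded. Samples with the same replicate number deviated together (correlation 0.153 to 0.390 over 18 pairs, against -0.289 to 0.0825 over 36 others), so the number was also fitted as a block. Deviations were taken from the mean of each group, so these ranges are not independent of each other. The scripts were tested on simulated data. The genes and lists were chosen with earlier results of these data known. All members, and list genes called in WT or Mapk9 KO, are named. Alternatives were neqc (offset 16), quantile normalization without background correction, subtracted array medians, a detection filter, all probes, blocks, no fold limit, a joint fit, the methods' t-test and each array left out.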

Additional observations from a re-analysis of the deposited data

Results flagged for a closer look

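Grem1 moved in opposite directions in the 2 genotypes in every replicate-numbered pair. Injured minus control on the log2 scale was -0.91, -0.47 and -0.56 in WT and 0.14, 0.09 and 0.81 in Mapk9 KO. The difference between the changes was 1.00 log2 units, and its limma interaction test did not pass (adjusted p = 0.32, or 0.141 with the replicate number as a block).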

How the results depend on the processing

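Inhba was called in both genotypes in every setting run, and the methods' t-test with adjustment called Inhba and Nog in WT and Inhba, Nog, Bmp2 and Smad6 in Mapk9 KO. That test called 12 list genes in WT, without Bmpr1b, Fbn2, Itgb6, Tgfbr1 (adjusted p = 0.0703) and Thbs1, and 23 in Mapk9 KO, without Crim1 and Itgav. Quantile normalization without background correction called 1 member in WT instead of 2 and 2 in Mapk9 KO instead of 4, and 7 and 15 genes of the pathway lists instead of 17 and 25, while all called genes went from 2560 to 967 and from 3233 to 1463. Nog in WT (0.76), and Bmp2 (0.79) and Smad6 (-0.82) in Mapk9 KO, were lost there, and the cause was not tested. With neqc, Bmpr1b was lost in both genotypes, Fbn2 and Itgb6 in WT and Crim1 in Mapk9 KO. When neqc was run on all probes of the array, Thbs1 in WT and Itgav in Mapk9 KO were lost as well. All called genes then numbered 1958 in WT and 2934 in Mapk9 KO. Without a fold limit 30 and 42 list genes passed, and 28.5% and 42.1% of all genes. Leaving out 1 array gave 2 to 3 members and 14 to 20 list genes in WT, and 3 to 4 members and 23 to 29 list genes in Mapk9 KO. For the interaction, the replicate block called 1 list gene (Bmpr1a) instead of 0 (105 of all genes instead of 0), and leaving out arrays gave 0 to 1 (Itgb6, without WT control replicate 3), as it did for genotype in control arrays. Without that array 209 of all genes were called for the interaction and 341 for genotype in control arrays. For genotype in injured arrays the block called 1 member (Bmp2) and 1 list gene (Tgif1), with 173 of all genes instead of 31. Small changes reversed. The Inhba interaction was 0.02 with neqc on either probe set, 0.03 with quantile normalization, and -0.24 to 0.04 with an array left out (0.04 without Mapk9 KO control replicate 2). With an array left out, the Tgfb2 interaction was -0.01 (without Mapk9 KO injured replicate 3) to 0.49, and that of Smad6 -0.40 to 0.16 (without WT control replicate 2). Tgfb3 in WT was 0.04 with array medians subtracted, and -0.31 to 0.26 with an array left out, above 0 for each of WT control replicates 1 and 3 and WT injured replicate 1. Fst in WT was -0.46 to 0.00 (without WT control replicate 1). The Fst interaction was -0.08 with neqc on either probe set, -0.05 with quantile normalization, -0.04 with array medians subtracted, and -0.23 to 0.25 with an array left out. Signal over background limits Bmp2, Nog and Smad7.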
